A study of Canis lupus familiaris with 25 samples.

Results

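T-cell lymphoma was compared with B-cell lymphoma in 9 of the 25 dogs sequenced, 3 labelled T-cell and 6 labelled B-cell. These 9 were taken because each sample name carries a number, called the sheet number here, that takes even and odd values up to 12 in 11 dogs, all B-cell (called the consecutive series, although not every number is present), and only odd values from 13 upward in the rest (the odd series). Only the odd series holds both immunophenotypes, so restricting the comparison to it gave both groups the same sheet series. Its 5 dogs of unknown immunophenotype were left out of the comparison. The study's text counts fewer dogs as B-cell and more as of unknown immunophenotype than the labels do, so a dog taken as B-cell here may lack an immunophenotype by that count. The question was which genes differ in level between the immunophenotypes when the series cannot account for the difference.

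All 9 dogs had naturally occurring lymphoma, and their enlarged lymph nodes were sampled by fine needle aspirate before CHOP chemotherapy (cyclophosphamide, doxorubicin, vincristine and prednisone), with at most an injection of prednisone beforehand. The T-cell group was dogs 028A (short survival), 036A and 038A (both long survival). The B-cell group was dogs 027A, 029A and 030A (short survival) and 033A, 034A and 037A (long survival). Every identifier in both groups ends in the letter A, whose meaning the labels do not give. Each dog gave 1 library and there were no healthy nodes. The study names separate technicians for the isolations, but who isolated which sample is not given in the sources used here, so the technician and the immunophenotype cannot be told apart.

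T lymphocytes recognise peptides held by MHC molecules through the T-cell receptor, which signals through the CD3 chains. B lymphocytes bind antigen with surface immunoglobulin, which signals through CD79A and CD79B, and they present it on MHC class II. A lymphoma keeps much of the programme of the lymphocyte it arose from, and in the clinic flow cytometry for such surface proteins assigns the immunophenotype, as was done for these dogs. In dogs the B-cell form is the more common, and the T-cell form is generally regarded as having the poorer outlook. An aspirate also holds the normal lymphocytes, macrophages and other cells of the node, and in bulk RNA fewer cells of a type and less RNA per cell cannot be told apart.

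The files list genes by Ensembl identifier and do not pair them with names, and the reference table matched 0 of 32704 identifiers. The labels were therefore not checked against CD3, CD79A or any other lineage gene, and genes are described by their number and pattern, with 4 identifiers given in full.

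Total counts ran from 12500534 (dog 036A) to 19540080 (dog 038A) in the T-cell group and from 9592039 (dog 029A) to 20685846 (dog 027A) in the B-cell group. For the mean totals a two-sided exact permutation test gave p = 0.881 (n = 3 and 6). With every library drawn down to the smallest total, a count was found for 23905 to 27232 genes in the T-cell dogs and 26109 to 30377 in the B-cell dogs (p = 0.0952 by the same exact permutation test). Dog 036A had the fewest. The smallest p that 3 dogs against 6 can give is 0.0238. The closest pair within a group, dogs 027A and 033A, had a chi-square per degree of freedom of 71.7 between their counts, above the value near 1 that counting noise alone gives, so no libraries were merged.

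Before any gene was tested, 3 libraries stood apart. Dog 037A, labelled B-cell, had counts that disagreed with its own FPKM values. Over 11725 genes, after each gene's mean over the dogs was subtracted, the correlation of counts with FPKM was 0.205 in dog 037A and 0.931 to 0.974 in the other 8 dogs. No FPKM column matched the counts of dog 037A closely, the best being that of dog 031A (r = 0.412). Dog 038A, labelled T-cell, lay with the B-cell dogs. Dog 029A, labelled B-cell, lay between the groups. The results are given with and without dogs 037A and 038A.

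The first principal component of log2(CPM + 1), where CPM is a gene's count scaled to its library's size, held 42.5% of the variance among the 9 dogs. Its scores were 80.2 in dog 028A, 131 in dog 036A and -26.2 in dog 038A. In the B-cell dogs they ran from -44.0 (dog 030A) through a median of -36.8 to 1.32 (dog 029A). Dogs 028A and 036A were above every B-cell dog. Dog 038A was below dog 029A and above the other B-cell dogs, the nearest of which was dog 037A at -30.5. The mean scores differed by 1.48 SD (p = 0.0476 by a two-sided exact permutation test, or 0.238 after Benjamini-Hochberg adjustment over 5 single measures), so the difference did not pass the adjusted threshold. On the second component, with 14.4% of the variance, the groups overlapped (difference 0.444 SD, p = 0.571 by the same exact permutation test). Dog 038A had the highest score there, 51.7, against -51.7 to 30.4 in the B-cell dogs.

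**Figure D1:**
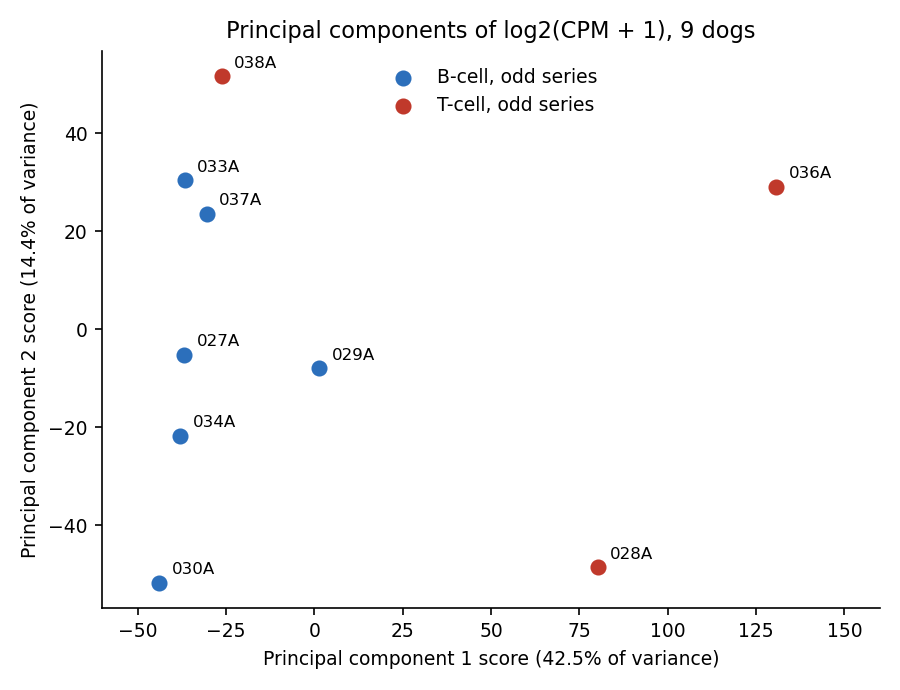
Scores of the 9 dogs on the first (horizontal) and second (vertical) principal component of log2(CPM + 1), with 1 point per dog, red for T-cell and blue for B-cell. Dogs 028A (80.2) and 036A (131) sit to the right, while dog 038A (-26.2) is within the B-cell range on the horizontal axis. On the vertical axis dog 038A (51.7) is above every B-cell dog.

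Dog by dog, the same arrangement appeared in the correlations of log2(CPM + 1) across genes, which share their libraries and are descriptions of single pairs. Among the 15 pairs of B-cell dogs r ran from 0.927 to 0.969. Dog 038A correlated with the B-cell dogs at 0.933 to 0.964, but with dog 028A at 0.903 and with dog 036A at 0.883. Dogs 028A and 036A correlated with each other at 0.937. The B-cell dog nearest to 038A was 033A by r, and 037A by the median absolute log2 difference between dogs (0.344, against 0.585 to dog 028A and 0.643 to dog 036A). Over 16155 genes with a mean CPM of at least 1, the median SD of log2(CPM + 1) was 0.509 in the T-cell group and 0.428 in the B-cell group, and it was larger in the T-cell group for 9696 of these genes.

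Counts of 20110 genes were then compared between the groups by edgeR's quasi-likelihood test. With Benjamini-Hochberg adjustment, 8 genes (0.0398%) passed a threshold of 0.05, of which 7 were higher and 1 lower in T-cell lymphoma. The adjusted p-values of the 8 ran from 0.0354 to 0.0377. The 7 higher genes had log2 fold changes of 2.84 to 6.17. For all 8 genes every T-cell dog lay on one side of every B-cell dog. Choosing genes by p-value in these same dogs favours such separation, also in the identifiers described below. Dog 038A was nevertheless the lowest T-cell dog in 6 of the 7 higher genes. Over all 7, its CPM was 2.19 to 5.27 times that of the highest B-cell dog (median 3.63). For the lower of dogs 028A and 036A that ratio had a median of 12.8. A further count, of genes with an unadjusted p-value under 0.05, was 4158 (20.7%), 2490 higher and 1668 lower in T-cell lymphoma. Leaving the counts unscaled but for the library totals shifted the median log2 fold change of all genes to -0.26 and turned the majority, since 1134 of the 3723 genes at this threshold were then higher. On the counts of the same 9 dogs and genes DESeq2 called 1328 at the adjusted threshold. limma on log2(FPKM + 1) called 2, from another table and filter (13953 genes tested).

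ENSCAFG00000010034 had the smallest p-value among the genes that rose. Its CPM was 394 in dog 028A, 441 in dog 036A and 108 in dog 038A, and in the B-cell dogs the lowest was 7.44, the median 20.6 and the highest 30.7. All 3 T-cell dogs were above all 6 B-cell dogs, with dog 038A the lowest of the 3. The group means were 314 ± 180 CPM (SD, n = 3) and 19.5 ± 9.00 (SD, n = 6). edgeR put the change at 4.01 ± 0.49 (standard error) on the log2 scale, with an adjusted p of 0.0354. In FPKM the means were 10.9 ± 6.10 and 0.562 ± 0.452.

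ENSCAFG00000013670 was less abundant and had the next smallest p-value. It reached 13.3 CPM in dog 028A, 14.2 in dog 036A and 6.06 in dog 038A, while the B-cell dogs ran from 0.847 through a median of 1.29 to 1.67. The groups did not overlap, and the lowest T-cell dog was again 038A. The means were 11.2 ± 4.47 (SD, n = 3) and 1.28 ± 0.312 (SD, n = 6) CPM. This was a change of 3.12 ± 0.38 (standard error) on the log2 scale, and the adjusted p by edgeR was 0.0354.

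ENSCAFG00000037515 was the gene that fell. Dogs 028A, 036A and 038A had 0.936, 0.268 and 0.433 CPM, which are 12, 3 and 8 reads. The B-cell dogs ran from 5.39 through a median of 9.36 to 14.03 CPM. Here dog 038A was not the dog nearest to the B-cell range, which was dog 028A. edgeR gave -4.15 ± 0.57 (standard error) on the log2 scale, with an adjusted p of 0.0373. In dog 037A the tables differed, since its 13.7 CPM was the second highest of the B-cell dogs and its 3.84 FPKM the lowest, the next being 5.92 in dog 027A.

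The identifier with the next smallest p-value on the lower side, ENSCAFG00000012294, did not pass the adjusted threshold. It had 0.624, 0.178 and 0.324 CPM in dogs 028A, 036A and 038A, from 8, 2 and 6 reads. In the B-cell dogs it had 3.12 to 10.9 CPM with a median of 6.30. No dog of one group reached the range of the other. On the log2 scale edgeR gave -4.11 ± 0.63 (standard error), with an adjusted p of 0.0572.

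**Figure D2:**
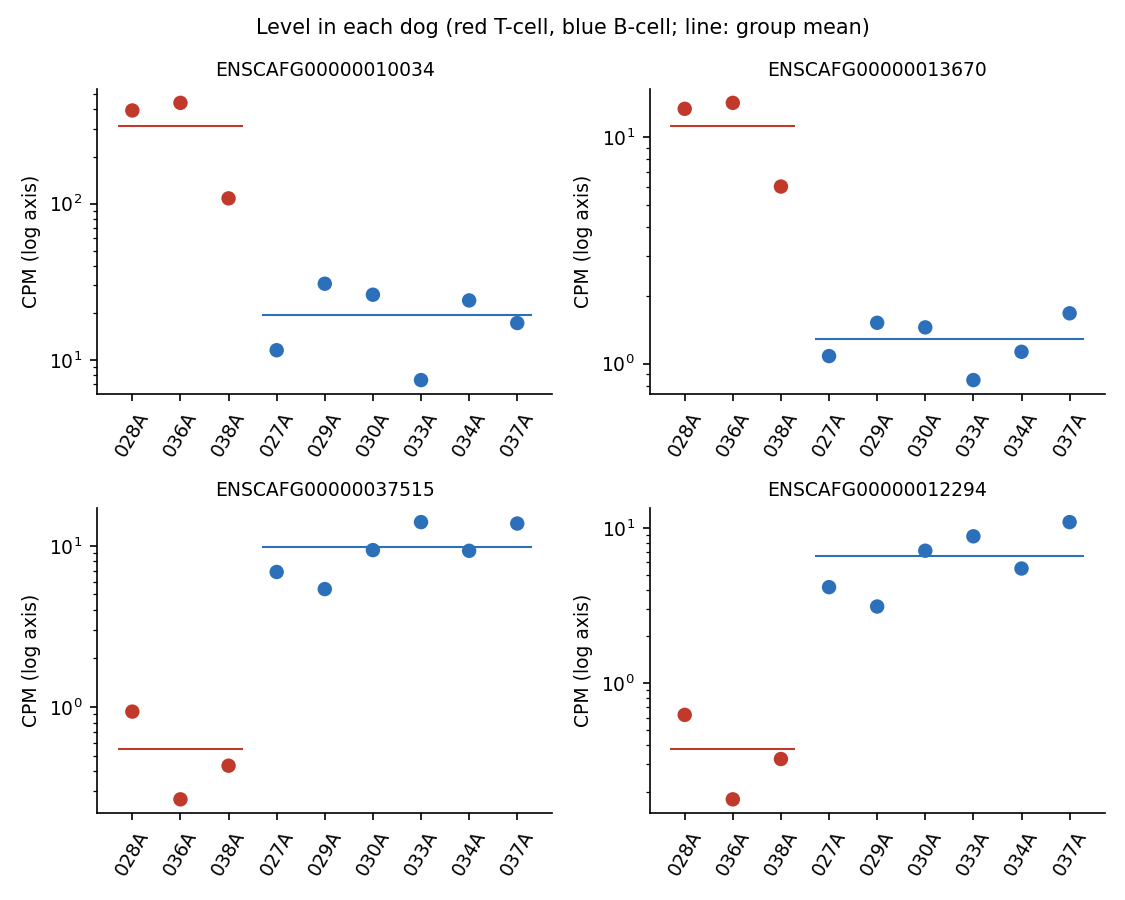
CPM (vertical, log axis) of the 4 identifiers in each of the 9 dogs (horizontal), red for T-cell and blue for B-cell, with a line at each group's mean. In the upper panels dog 038A is the lowest of the T-cell dogs but above every B-cell dog, and in the lower panels all T-cell dogs are below 1 CPM.

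Such separation was also counted over all genes tested. The 3 T-cell dogs all lay above the 6 B-cell dogs in 801 of the 20110 genes (3.98%) and all below in 814 (4.05%). Without dog 038A, dogs 028A and 036A were above every B-cell dog in 3021 genes and below in 2711. Without dog 028A the numbers were 1616 and 1660, and without dog 036A 1083 and 1013, so leaving out dog 038A gave the highest count of the 3. Any 2 dogs clear a range more easily than 3, which raises all of these counts.

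Single T-cell dogs carried the unadjusted differences unequally. In the 2490 higher genes, dog 036A was the highest of the 3 in 1469, dog 028A in 830 and dog 038A in 191. The median difference from the B-cell mean on the log2(CPM + 1) scale was 1.33 in dog 036A, 1.06 in dog 028A and 0.34 in dog 038A. In the 1668 lower genes, dog 036A was the lowest of the T-cell dogs in 1231, dog 028A in 279 and dog 038A in 158. Their median differences were -0.95 in dog 036A, -0.66 in dog 028A and -0.58 in dog 038A, a smaller gap between dogs than in the higher genes.

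Large differences were sorted by the T-cell dogs that showed them, over the 16155 genes with a mean CPM of at least 1. Dogs 028A and 036A were both at least 4-fold above every B-cell dog in 93 genes in which dog 038A was within the B-cell range. In the other direction there were 60 such genes. All 3 T-cell dogs were at least 4-fold above every B-cell dog in 1 gene and 4-fold below in 1. Genes in which another T-cell dog lay outside the B-cell range by less than 4-fold fell in no class and were not counted. In the 7 higher genes called above, dog 038A had a median of 3.63 times the highest B-cell dog, which is under 4-fold. Dog 038A shared such a difference with dog 028A alone in 0 genes above and 2 below, and with dog 036A alone in 0 of either kind. A single T-cell dog stood 4-fold above, with the other two inside the B-cell range, in 66 genes for dog 036A, 13 for dog 028A and 7 for dog 038A. No gene had at least 10 reads in each T-cell dog and none in any B-cell dog at equal depth, and 0 had the reverse.

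**Figure D3:**
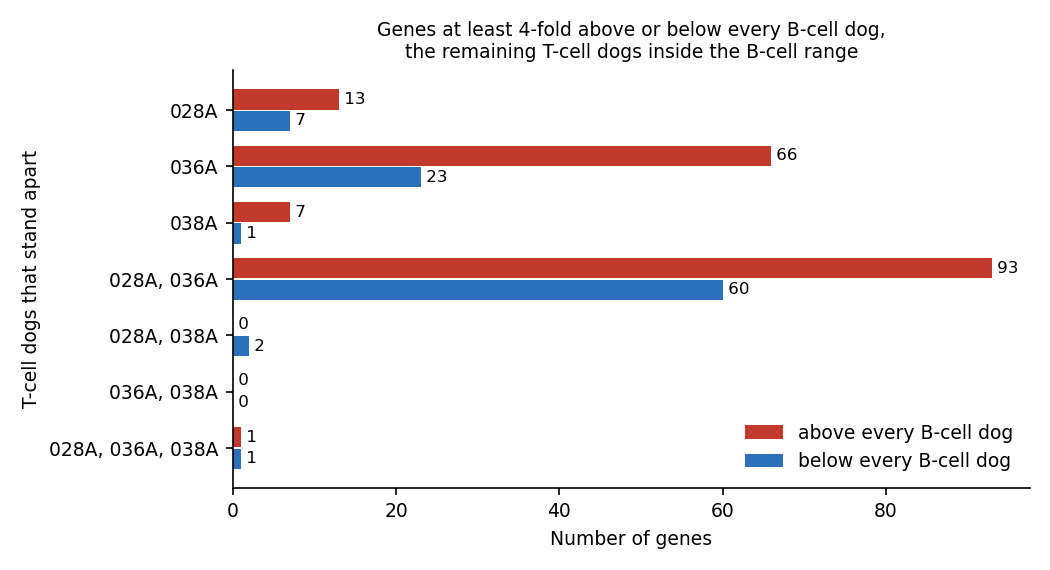
Number of genes (horizontal) at least 4-fold above (red) or below (blue) every B-cell dog in the T-cell dogs named on the vertical axis, the remaining T-cell dogs lying inside the B-cell range. The pair 028A and 036A has a bar of 93 above and 60 below, against 1 and 1 for all 3 dogs together. Genes in which a remaining T-cell dog lay outside the B-cell range by less than 4-fold are not shown.

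Leaving out dog 038A raised the number of genes past the adjusted threshold to 2051 of 21834 (9.39%), 1392 higher and 659 lower in dogs 028A and 036A than in the B-cell dogs. All 8 genes of the comparison of 9 dogs were among them. The median log2 fold change was 2.07 in the higher and -2.93 in the lower genes, and 728 and 576 of them differed at least 4-fold. Over all genes tested the median was -0.16. DESeq2 on the same 8 dogs called 3467 genes, and the 1979 genes shared were 96.5% of the 2051 and 57.1% of the DESeq2 calls. limma on log2(FPKM + 1) called 1343, and the 979 shared were 47.7% of the 2051, of which 1718 were tested there, and 72.9% of the limma calls. The shared genes had the same direction in both tools, which the use of the same 8 dogs made likely beforehand. Dog 038A was not tested against the other T-cell dogs.

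Dog 038A had no part in the fit that called those genes. Its own values were placed in the called genes that also passed the filter on low counts in the 9 dogs, which included it, so that 60 higher and 12 lower genes dropped out. Of the 1332 higher genes left, it lay inside the range of the B-cell dogs in 879 (66.0%), above all of them in 277 and below all in 176. Of the 647 lower genes left it lay inside in 375 (58.0%), below in 143 and above in 129. The same shares over all genes were not counted. A dog like the B-cell dogs would also fall outside their range in part of the genes. These counts alone therefore do not measure how near dog 038A was to them. All 1392 higher genes, those that dropped out included, together took 166570 CPM (scaled to the library total only) in dog 028A and 192820 in dog 036A. They took 53349 to 87910 in the B-cell dogs and 64204 in dog 038A. All 659 lower genes took 6813.5 and 5382.8 CPM in dogs 028A and 036A, 39900 to 56944 in the B-cell dogs and 51677 in dog 038A. By both sums dog 038A was inside the B-cell range. The other dogs were in the fit that chose these genes, so the gap between dogs 028A and 036A and the B-cell dogs follows from that choice.

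Leaving out dog 037A, whose columns disagree, gave 0 genes by edgeR at the adjusted threshold, with 3716 (18.8%) at the unadjusted one, 1984 higher and 1732 lower. The smallest adjusted p-value was 0.146. DESeq2 without this dog called 1006 genes and limma on log2(FPKM + 1) called 1. All 8 genes of the full comparison kept their direction. A similar loss followed other dogs, and 7 of the 9 fits that each left out a dog called 0 genes, with smallest adjusted p-values of 0.0714 to 0.147 and 2211 to 4359 genes at the unadjusted threshold. The exceptions were dogs 038A (2051 genes) and 029A (27). With dogs 037A and 038A both left out, 1263 genes passed, 828 higher and 435 lower, and 1241 of them were among the 2051.

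**Figure D4:**
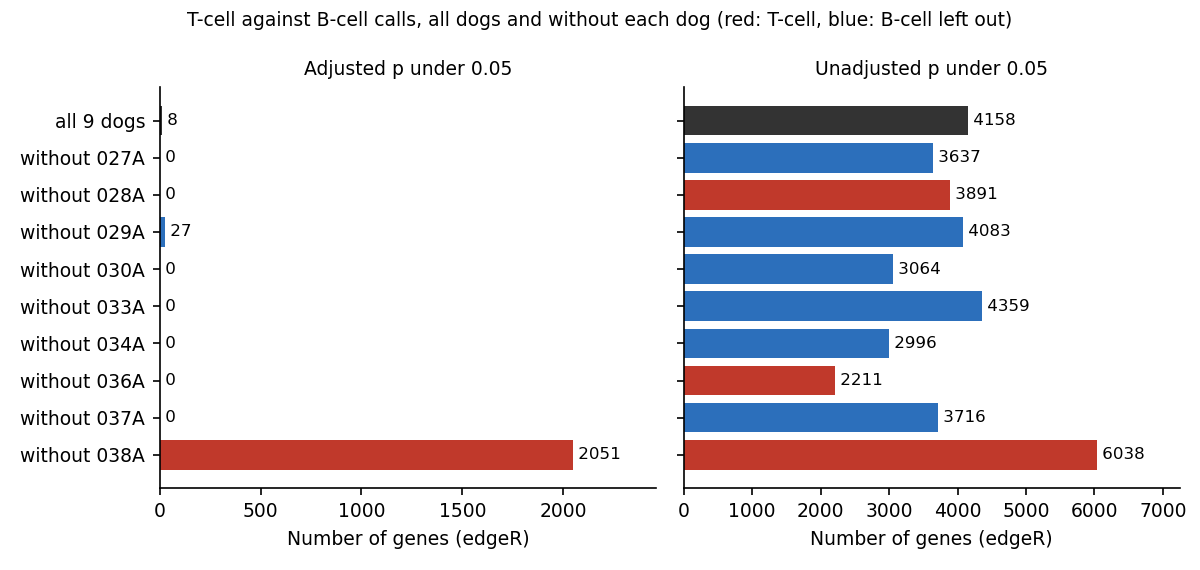
Number of genes (horizontal) past the adjusted (left) and the unadjusted (right) threshold of edgeR's test, with all 9 dogs and without each dog (vertical, red where a T-cell and blue where a B-cell dog was left out). The adjusted count is 8 with all dogs, 2051 without dog 038A, 27 without dog 029A and 0 without any other dog.

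Each dog was also placed between the groups without its own help. In each direction the 200 genes of smallest p-value were taken from the fit of the other 8 dogs, and the dog's median position over these genes was set on a scale from 0, the mean of the other B-cell dogs, to 1, the mean of the other T-cell dogs. Dog 036A lay at 1.11 and dog 028A at 0.722. Dog 038A lay at -0.0705, on the B-cell side. Of the 6 B-cell dogs, 5 lay between 0.0342 and 0.123, and dog 029A lay at 0.457. These positions are not on one scale, since the genes and both means differ from dog to dog. The T-cell mean used for dogs 028A and 036A and for each B-cell dog includes dog 038A, while the mean used for dog 038A does not. The order at the lower end changed with the number of genes, which was varied after seeing the data. With 50 genes in each direction dogs 038A (-0.0747) and 037A (-0.0736) were nearly equal, and with 1000 dog 038A (-0.0169) was above dog 030A (-0.109).

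From FPKM values, with the genes chosen by limma, the positions were 0.995 for dog 036A, 0.571 for dog 028A and -0.0350 for dog 038A. Dog 029A lay at 0.754, above dog 028A, and the other B-cell dogs at 0.00315 to 0.0869. Dog 037A, at 0.0515 in counts and 0.0136 in FPKM, lay with the B-cell dogs in both tables. For the positions the spread within each group is the only measure of error, and no test was made.

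Dogs outside the comparison were placed with the genes of all 9 dogs. The 5 dogs of unknown immunophenotype lay at -0.0287 to 0.0448, and 10 of the 11 B-cell dogs of the consecutive series at -0.0880 to 0.136. The exception, dog 002, lay at 0.784. The directions differed in both sets of dogs. In the genes higher in T-cell lymphoma the 11 dogs lay at -0.236 to -0.0531 and the 5 at -0.190 to -0.0286, and in the genes lower in it at 0.178 to 1.07 and 0.112 to 0.509. The B-cell dogs of the comparison, each placed without itself, had a median of 0.228 in the lower genes. Placed with the genes of the fit without dog 038A, all 16 dogs lay at or below -0.0152, and dog 002 at -0.0961. The 11 dogs lay at -0.172 to -0.0193, and on the same genes and means dog 038A lay at -0.0705. The lower genes then put the 11 dogs at -0.177 to 0.0546 and the 5 at -0.0867 to 0.0450.

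**Figure D5:**
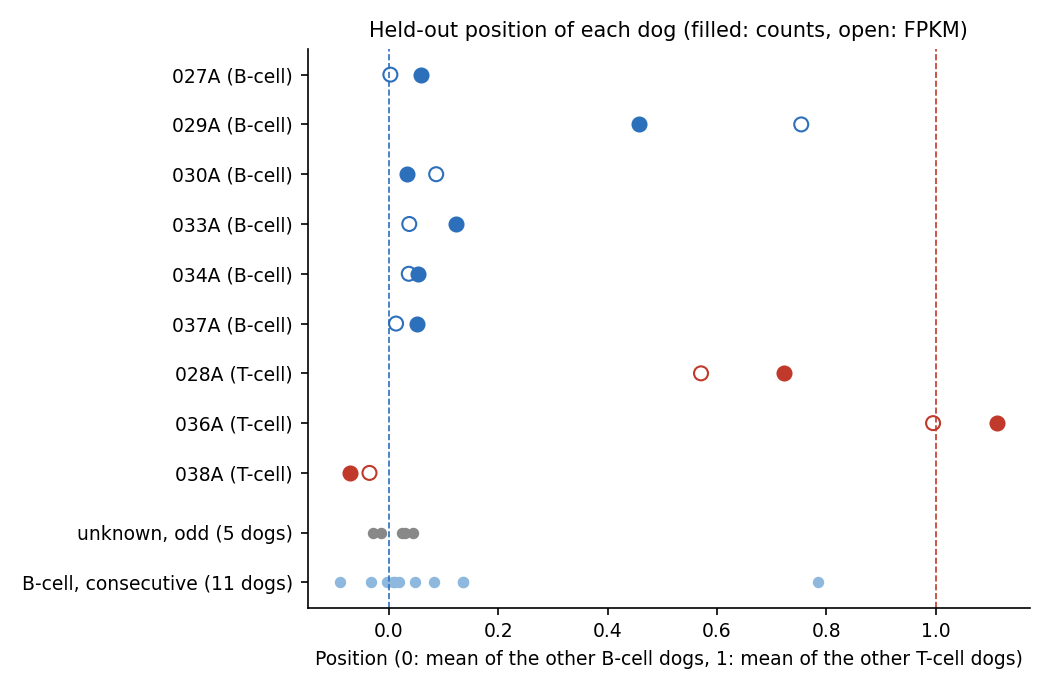
Median position of each dog (vertical) between the B-cell mean (0) and the T-cell mean (1) on the horizontal axis, from counts (filled) and FPKM (open), each of the 9 dogs placed with genes chosen without it. Dog 038A is at -0.0705, dog 029A at 0.457 and dog 036A at 1.11, and the lower rows show the dogs of unknown immunophenotype and of the consecutive series, placed with the genes of all 9 dogs.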

How the data were processed

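RNA from 25 fine needle aspirates was sequenced as single reads. The labels name total RNA and the study's methods poly A-RNA. According to the submitters' processing notes the authors used HISAT2 2.1.0, StringTie 1.3.3 and CanFam3.1, with an Ensembl gene model. The raw counts were deposited as whole numbers per gene, and the program, strand setting and treatment of shared reads behind them are not given in the sources used here, so overlapping and near-identical genes are uncertain. For FPKM values the authors used Ballgown. Columns not used numbered 0.

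Groups came from the immunophenotype label and the sheet number. Genes passing filterByExpr were tested with edgeR 4.0.16 (glmQLFTest, TMM, Benjamini-Hochberg) in R 4.3.3. The standard error is the log2 fold change divided by the square root of F. DESeq2 1.42.0 and limma 3.58.1 (trend, mean FPKM of at least 1) were alternatives. Fits were checked on simulated counts. Exact permutation used SciPy 1.17.1. P-values set the group difference against the variation between libraries. With 1 library per dog, differences between dogs and technical differences cannot be told apart. In the sorting by fold, 0.5 CPM was added to each value. The rule for files without gene names was to give the 2 identifiers of smallest p-value that were higher and the 2 that were lower. CPM was TMM-scaled unless stated. The 27 lists of marker and pathway genes matched 0 identifiers and were not run. Members and lists were chosen with earlier results of these data known.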

Additional observations from a re-analysis of the deposited data

Results flagged for a closer look

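For the 6 B-cell dogs, 11 measures were examined for a dog whose gap to the nearest other was large against the group's range, and 3 values stood apart. Chance gives about 1 in 20 groups, but the 3 values cannot be weighed against that rate. Dog 037A stood apart in the correlation of its counts with its FPKM values (0.205, next 0.931), a disagreement known before the examination. Dog 029A stood apart on the first principal component (1.32, next -30.5) and in the position between the groups from genes chosen without it (0.457, next 0.123). These are related measures of the same dog. Dog 029A also had the smallest total count of the 9 dogs, 9592039, and the part of depth in its position was not tested. With 3 dogs, the T-cell group is too small for this examination, so it could not be applied to dog 038A.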

How the results depend on the processing

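With 8 genes past the adjusted threshold in 9 dogs, the count was 9 with RLE scaling, 8 with a robust fit and 6 at equal depth. It was 111 with low counts left unfiltered, 1328 with DESeq2, 5 with survival as covariate, 547 with the 14 dogs of the odd series in the fit, 801 with 20 dogs and the series as covariate, 0 with a mean CPM of at least 1 (3232 unadjusted) and 0 with library totals only (3723 unadjusted). limma on FPKM values called 2 at a pseudocount of 1, 1 at 0.1, 1 without a filter and 1 without dog 037A. Fits that each left out a dog gave 0 to 2051. In alternatives added after seeing the data, the count was 1006 with DESeq2 without dog 037A, 3467 with DESeq2 and 1343 with limma without dog 038A, and 1263 without dogs 037A and 038A. The causes were not tested.

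The 4158 genes at the unadjusted threshold became 2220 and 2236 with limma at pseudocounts of 1 and 0.1, 1746 with limma without dog 037A, 6508 with DESeq2 without dog 038A, and 2211 to 6038 when each dog was left out. The share of called genes higher in T-cell lymphoma, 87.5% of 8, was 100% with survival as covariate and at equal depth, 45.2% with limma without dog 038A, and 0% with limma at a pseudocount of 0.1, without a filter or without dog 037A, where 1 gene was called each time. It was 67.9% and 77.8% in the fits without a dog that called any gene. At the unadjusted threshold the share was 59.9%, against 30.5% with library totals only, 44.3% without a filter, 45.9% with limma and 74.5% with 20 dogs.

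The 801 and 814 genes without overlap were 292 and 409 in FPKM, 779 and 507 at a mean CPM of at least 1 and 1081 and 989 without dog 037A. In alternatives chosen after seeing the data, they were 3021 and 2711 without dog 038A, and 1616 and 1660 without dog 028A. The first component's difference of 1.48 SD lay between 1.27 and 2.06 in the sets of 8 dogs and passed an unadjusted 0.05 only without dog 029A among these, though with 2 T-cell dogs no exact permutation test can. The difference in mean total count was -498549 and ran from -2283090 to 1236690, and the difference in the percent of counts in the 10 largest genes was 0.886 and ran from -0.0728 to 2.25. All 4 identifiers kept their direction in every fit that tested them. ENSCAFG00000010034, ENSCAFG00000013670 and ENSCAFG00000037515 missed the adjusted threshold in 13 of 27, 11 of 24 and 15 of 27 alternatives, and ENSCAFG00000012294 passed it in 10 of 27. No paired analysis was possible because the groups hold different dogs, and the replicate numbers, given in accession order, only name them. Alternatives for the gene lists were not run, since no identifier matched. Reads of 2 to 12 per T-cell dog limit the precision of the identifiers low in T-cell lymphoma.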
